A study of Mus musculus with 2 samples.

Results

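The genes described here are 8: the 4 proteins of the H/ACA ribonucleoprotein (*Dkc1*, *Nop10*, *Nhp2* and *Gar1*), its assembly factors *Naf1* and *Shq1*, the telomerase reverse transcriptase *Tert*, and the telomerase RNA, named Telomerase-vert in the annotation and *Terc* below. They were chosen by name from the 37273 genes that GENCODE release M1 places on the autosomes, X and Y of mm9, and the rule uses no measured value. Non-polyadenylated (NPA) RNA was sequenced strand-specifically, as 1 library from each of 2 cell types. ESCs are male mouse R1 embryonic stem cells at passage 18, grown with leukemia inhibitory factor on mitotically inactivated mouse embryonic fibroblasts. NPCs, labelled ESC-derived neuronal progenitor cells, were derived from the same R1 line. They spent 4 days as embryoid bodies without leukemia inhibitory factor, were then replated on poly-L-ornithine and fibronectin in medium with insulin, transferrin and selenium, and were gathered on day 7. Both RNAs went through oligo(dT) depletion and ribosomal RNA removal, so the reads show what remained after poly(A) RNA was drawn off. Nothing in the libraries tells residual poly(A) mRNA from mRNA without a tail.

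H/ACA RNAs guide pseudouridylation, the conversion of chosen uridines of ribosomal and spliceosomal RNA to pseudouridine. Dyskerin, the product of *Dkc1*, is the enzyme, and Nop10, Nhp2 and Gar1 complete the core. *Naf1* holds the place of Gar1 while a particle is being assembled, and *Shq1* is a chaperone that binds dyskerin before it meets RNA. The telomerase RNA ends in an H/ACA domain bound by the same 4 proteins, and *Tert* copies its template into telomeric repeats. Telomerase is active in embryonic stem cells.

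The files hold 4271306 mapped reads for ESCs and 4399729 for NPCs, so 1 read is worth 0.234 and 0.227 reads per 1000000 mapped reads (RPM). With 1 library per cell type there is no replicate check and no test between cell types. Counts are given with exact Poisson 95% intervals, and ratios with conditional binomial 95% intervals. These cover the counting error of reads only, not the spread between replicates. PCR copies of a fragment look like separate RNA molecules when no molecular identifiers are used. The intervals can therefore be too narrow for counts of molecules. A gene is called lower or higher when its RPM differs by more than 2-fold after 1 read is added in each library, among genes with at least 10 reads in the libraries together. By this rule 12.8% of 14859 genes were lower in NPCs and 24.6% higher. Among 12711 protein-coding genes 11.6% were lower and 26.2% higher. The median log2 ratio of all genes was 0.34, so a gene at equal RPM stands slightly below the middle gene.

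The cell type labels were set against marker genes. Of 10 pluripotency genes 8 were lower in NPCs, the highest of them in reads being *Pou5f1* with 2623 reads in ESCs and 724 in NPCs. Of the 9 neural progenitor genes matched, 5 reached 10 reads, of which 2 were higher, 1 was lower and 2 stood within 2-fold. *Tubb3* led with 109 and 87 reads, *Nes* had 66 and 121, *Pax6* had 1 and 12, and 5 of the 9 genes were at 0 in ESCs. Their summed level was 53.9 RPM in ESCs and 60.9 in NPCs, while that of the pluripotency genes was 2411 and 677. All 10 extraembryonic endoderm genes were higher in NPCs, and their summed level was 671 RPM in ESCs and 13076 in NPCs, led by *Col4a1* with 856 and 20753 reads. The library labelled NPC thus holds strong endoderm markers and weak neural ones. Of 7 fibroblast genes with at least 10 reads, which the feeder cells could contribute, 2 were lower and 1 was higher. The lower ones were *Thy1*, with 79 reads in ESCs and 12 in NPCs, and *Pdgfrb*, with 93 and 21. The higher one, *Col1a2*, led with 51 and 165 reads. The summed level of the list was 68.4 RPM in ESCs and 66.8 in NPCs, a sum in which opposite shifts offset. The part of these other cells in the values below was not tested. In such bulk RNA, fewer cells that express a gene and less RNA in each cell cannot be told apart.

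The annotation places telomerase RNA at 2 loci of chromosome 3, both on the minus strand and both typed misc_RNA. The locus of known status, ENSMUSG00000064796.1, spans 423 nt at chr3:96218360-96218782 and is *Terc* here. The other, ENSMUSG00000065361.1, spans 412 nt at chr3:30494268-30494679. Aligned end to end, the loci have 349 identical bases, 49 mismatches and 39 gap bases, an identity of 87.7% over the aligned bases. Their 5′ and 3′ parts in mm9 are shown because the template lies in the first and the H/ACA end in the second. Capitals mark the template letters CTAACCCT, which lie at bases 29 to 36 of *Terc* and 27 to 34 of the second locus, and the trinucleotide that stands 3 bases before the end.
Terc, bases 1 to 170 (chr3:96218613-96218782): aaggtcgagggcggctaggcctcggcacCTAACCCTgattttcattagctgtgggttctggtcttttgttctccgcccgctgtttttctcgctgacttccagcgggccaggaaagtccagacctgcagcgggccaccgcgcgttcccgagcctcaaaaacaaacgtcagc
second locus, bases 1 to 75 (chr3:30494605-30494679): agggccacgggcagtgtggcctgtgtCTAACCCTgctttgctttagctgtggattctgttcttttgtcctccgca
Terc, bases 334 to 423 (chr3:96218360-96218449): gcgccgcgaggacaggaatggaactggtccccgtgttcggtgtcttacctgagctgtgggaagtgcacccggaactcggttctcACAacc
second locus, bases 323 to 412 (chr3:30494268-30494357): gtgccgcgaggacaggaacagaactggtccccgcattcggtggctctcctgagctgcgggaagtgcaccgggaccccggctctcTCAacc
The template letters are the same at both loci, and the terminal trinucleotide is ACA in *Terc*, as in other H/ACA RNAs, and TCA at the second locus.

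*Terc* reads were more abundant in ESCs than in NPCs, and the second locus was not detected. *Terc* had 84 reads in ESCs (67.0 to 104) and 20 in NPCs (12.2 to 30.9), with 0 on the opposite strand. Every one of these reads carried a sequence that occurs once in mm9. Per library total this was 19.7 RPM in ESCs and 4.55 RPM in NPCs, 4.33-fold higher in ESCs (2.63 to 7.44). The log2 ratio of NPCs to ESCs was -2.11, or -2.45 once the median of all genes was subtracted. The second locus had 0 reads in each library (0 to 3.69). The fixed limit of 3 reads used for a count of 0 is 0.702 RPM in ESCs and 0.682 in NPCs. The *Terc* reads began at 18 positions in ESCs and 11 in NPCs. Counted once per start position, with library totals counted the same way, the ratio of NPCs to ESCs rose from 0.231 to 0.506. That value no longer met the 2-fold rule.

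Reads were not spread evenly along *Terc*. In ESCs 38 of the 84 reads began at base 120, counted from the annotated 5′ end, and 17 began at base 63. The same bases led in NPCs, with 6 and 3 of 20 reads. The 48 nt that begin at base 120 were the most frequent read of the gene and are shown for that reason.
Terc, bases 120 to 167 (chr3:96218616-96218663): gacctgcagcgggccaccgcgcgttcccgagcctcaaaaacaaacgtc
Joining starts no more than 15 bases apart gave 3 stretches with at least 10 starts, a rule set after the starts had been seen. Bases 102 to 125 held 45 starts in ESCs and 8 in NPCs, 53.6% (42.4 to 64.5%) and 40.0% (19.1 to 64.0%) of the reads. Bases 63 and 64 held 21 of 84 starts (16.2 to 35.6%) and 5 of 20 (8.66 to 49.1%). Bases 342 to 373, within the H/ACA end, held 13 and 6, or 15.5% (8.51 to 25.01%) and 30.0% (11.9 to 54.3%). The share intervals of the libraries overlap in each stretch. The plot of read starts along the gene shows starts in these 3 stretches in both libraries.

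**Figure D1:**
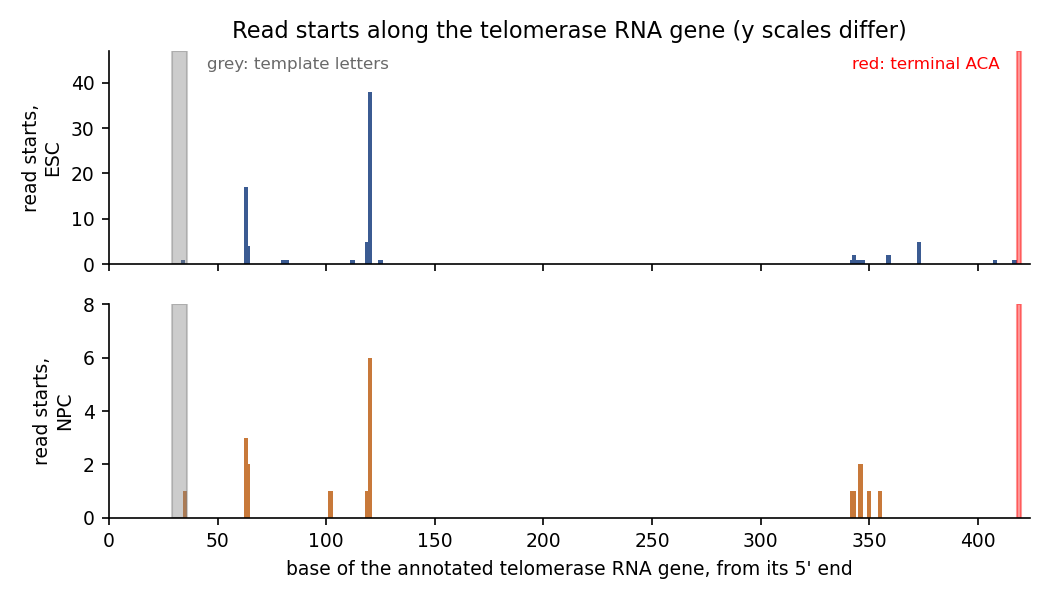
Number of reads that start at each base of the annotated telomerase RNA gene, counted from its 5′ end, in ESCs (top, blue) and NPCs (bottom, orange), with the template letters in grey and the terminal ACA in red. Starts gather near bases 63 and 120 and, with fewer reads, between bases 342 and 373, and the vertical scales of the panels differ.

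Bases 1 to 211 of *Terc* held 69 of 84 starts in ESCs, or 82.1% (72.3 to 89.7%), and 14 of 20 in NPCs, or 70.0% (45.7 to 88.1%). The middle of the gene, after base 125 and before base 342, had 0 read starts in both libraries. At the 3′ end, 2 ESC reads (0.242 to 7.23) and 0 NPC reads crossed the last annotated base, and 0 reads lay wholly in the 200 bases beyond. The ACA lies at bases 418 to 420, so the annotated gene ends 3 bases after it. Before the 5′ end 0 reads crossed or lay within 200 bases in either library. RefSeq gives *Terc* 397 nt on a later assembly, shorter than the 423 nt counted over here.

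*Tert* (ENSMUSG00000021611.7, chr13:73764449-73786489, plus strand, 16 exons), the protein that uses this template, was also more abundant in ESCs. It had 260 reads in ESCs (229 to 294) against 74 in NPCs (58.1 to 92.9), or 60.9 and 16.8 RPM, 3.62-fold higher in ESCs (2.79 to 4.75). Its log2 ratio was -1.86, or -2.19 with that median subtracted, and 4.17% of protein-coding genes had a lower ratio. The reads began at 157 positions in ESCs and 47 in NPCs, and with each start counted once the ratio was 0.248, against 0.276 with all reads. Over all 8 alternatives of counting and scaling the *Tert* ratio stayed between 0.217 and 0.277. Using the longest transcript or keeping small RNA reads leaves the *Tert* counts as they are, so those alternatives could not move it.

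*Tert* reads covered all 16 exons in ESCs. Exon 2, the longest at 1324 nt, held 128 reads in ESCs and 34 in NPCs, 49.2% and 45.9% of the gene. Exon 8, of 86 nt, was the densest, with 25 and 8 reads, or 291 and 93.0 reads per kb. Exons 6, 10 and 14 had 9, 10 and 10 reads in ESCs and 0 in NPCs. The coding bases held 253 reads in ESCs and 73 in NPCs, nearly all of the gene, since both untranslated parts are short. The most used start, at position 73765885 in exon 2, was the same in both libraries, with 29 and 13 reads.

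Among the 4 core proteins the 2 libraries differed in opposite directions. *Dkc1*, *Nop10* and *Nhp2* had fewer reads in NPCs, and *Gar1* had more. Pooled, the 4 genes had 1041 reads in ESCs and 689 in NPCs, a ratio of 0.643 (0.583 to 0.708). Of the 7 protein-coding genes 2 were called lower in NPCs, *Tert* and *Nop10*, and 0 higher, beside 11.6% and 26.2% of protein-coding genes in general. The median log2 ratio of the 7 was -0.40, against 0.40 for protein-coding genes.

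*Dkc1* (ENSMUSG00000031403.8, chrX:72341193-72355116, plus strand, 15 exons), the pseudouridine synthase, had the most reads of the 8 genes. It had 570 reads in ESCs (524 to 619) and 307 in NPCs (274 to 343), or 133 and 69.8 RPM. The fold was 1.91 in favour of ESCs (1.66 to 2.20), just inside the 2-fold limit. The ratio fell from 0.523 to 0.414 when the libraries were scaled by the median of all genes, which put *Dkc1* past that limit.

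*Nop10* (ENSMUSG00000027133.3, chr2:112102083-112103426, plus strand, 2 exons), the smallest core protein, had 195 reads in ESCs (169 to 224) and 85 in NPCs (67.9 to 105), or 45.7 and 19.3 RPM. It was 2.36-fold higher in ESCs (1.82 to 3.09). Those reads began at 47 and 33 positions, and with each start counted once its ratio rose from 0.423 to 0.582, within the limit.

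*Nhp2* (ENSMUSG00000001056.3, chr11:51433237-51437216, plus strand, 4 exons) binds the RNA stem beside dyskerin. Its 206 reads in ESCs (179 to 236) and 161 in NPCs (137 to 188) gave 48.2 and 36.6 RPM. The fold of 1.32 in favour of ESCs (1.07 to 1.63) was small, and the counting interval of the ratio lay below equality. It was the only gene of the 8 with antisense reads, 1 in each library.

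*Gar1* (ENSMUSG00000028010.9, chr3:129527830-129534314, minus strand, 7 exons) went the other way. It had 70 reads in ESCs (54.6 to 88.4) and 136 in NPCs (114 to 161), or 16.4 and 30.9 RPM, a ratio of 1.89 (1.40 to 2.55). *Gar1* stayed above equality in all 8 alternatives, from 1.30 with each start counted once to 2.10 over coding bases. The value of 1.30 rests on 28 start positions in ESCs and 44 in NPCs, scaled by 1531216 and 1848069 start positions in the whole libraries. Of protein-coding genes 70.6% had a lower ratio than *Gar1*, so many genes lay further to the NPC side.

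*Naf1* (ENSMUSG00000014907.8, chr8:69384116-69414463, plus strand, 8 exons), which Gar1 replaces in the mature particle, was also more abundant in NPCs. It had 98 reads in ESCs (79.6 to 119) and 199 in NPCs (172 to 229), or 22.9 and 45.2 RPM. The ratio of 1.97 (1.54 to 2.54) lay just inside the 2-fold limit and ranged from 1.39 to 2.00 over the alternatives. A lower ratio than that of *Naf1* was found in 72.9% of protein-coding genes.

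*Shq1* (ENSMUSG00000035378.11, chr6:100523075-100621151, minus strand, 11 exons), the dyskerin chaperone, had 69 reads in ESCs (53.7 to 87.3) and 76 in NPCs (59.9 to 95.1). Its ratio of 1.07 (0.762 to 1.50) held equality within the counting interval. Its direction flipped to 0.847 when the libraries were scaled by the median of all genes, and to 0.705 with each start counted once. The plot of ratios orders the 8 genes from *Terc* to *Naf1*.

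**Figure D2:**
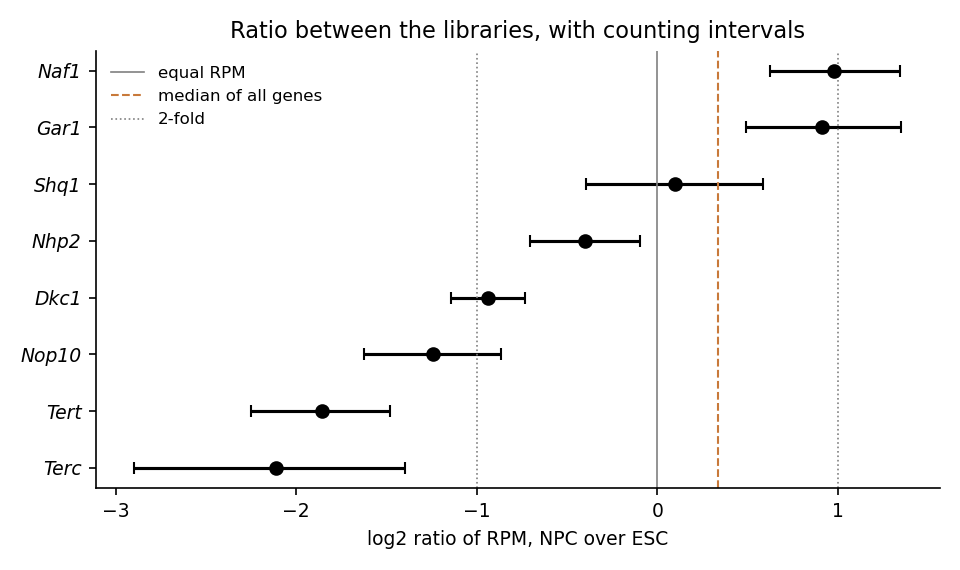
Log2 ratio of RPM, NPC over ESC, for each gene (points) with conditional binomial 95% intervals (bars, counting error only), the median of all genes (dashed orange line), equality (solid) and 2-fold differences (dotted). *Terc* and *Tert* lie wholly beyond 2-fold on the ESC side, *Gar1* and *Naf1* lie on the NPC side, and the *Shq1* bar spans equality.

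Levels of different genes were compared as RPKM, which is RPM per kb of exon. In ESCs the order was *Terc* at 46.5 RPKM (37.1 to 57.6), *Nhp2* at 42.1, *Nop10* at 41.2 and *Dkc1* at 32.4, then *Tert* at 17.8, *Gar1* at 9.56, *Naf1* at 7.67 and *Shq1* at 7.40. Neighbours within the first 3 did not differ beyond counting error, nor did neighbours within the last 3. *Nop10* stood 1.27-fold (1.08 to 1.50) above *Dkc1*, *Dkc1* 1.82-fold (1.57 to 2.12) above *Tert*, and *Tert* 1.86-fold (1.42 to 2.46) above *Gar1*. Over the longest transcript of each gene *Dkc1* moved up to 46.1 RPKM, ahead of *Nop10*, so their order depends on the gene model. With each start counted once *Terc* fell to 27.8 RPKM, close to *Nop10* at 27.7, and *Tert* rose to 29.9, so that *Nhp2* at 41.0 and *Dkc1* at 39.3 led the order.

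In NPCs the order changed. *Nhp2* led at 31.9 RPKM (27.2 to 37.3), 1.77-fold (1.40 to 2.24) above the next gene. *Gar1* at 18.0, *Nop10* at 17.4, *Dkc1* at 16.9 and *Naf1* at 15.1 RPKM followed, and none of these neighbours differed beyond counting error. *Terc* at 10.7 RPKM (6.56 to 16.6) did not differ from *Naf1* above it or from *Shq1* at 7.92 below it. *Tert* was last at 4.91 RPKM (3.86 to 6.16), with *Shq1* 1.61-fold (1.16 to 2.25) above it. *Gar1* was below all 3 other core proteins in ESCs and among them in NPCs, as the plot of levels shows. With each start counted once it was below all 3 in both libraries, at 10.7 and 13.9 RPKM.

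**Figure D3:**
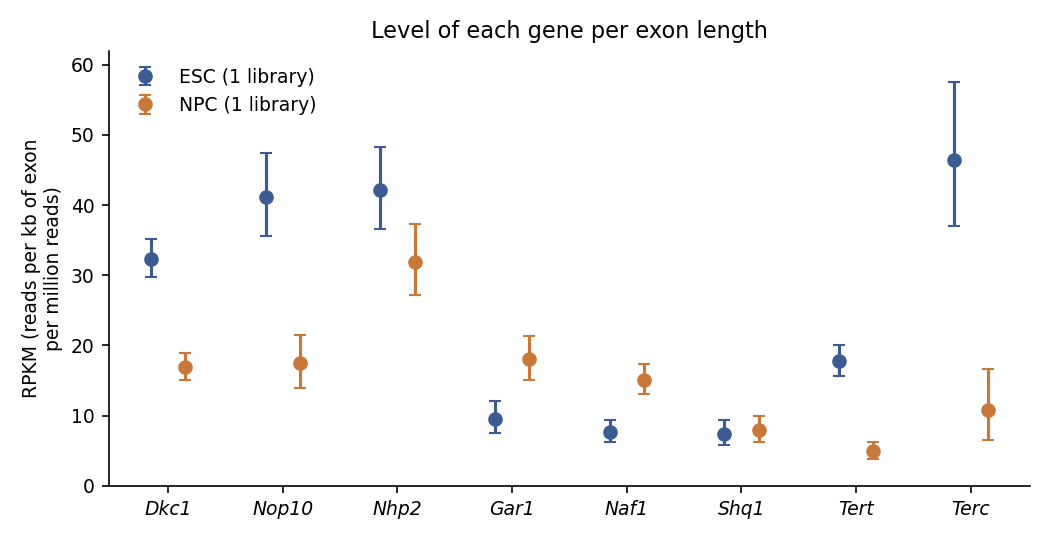
RPKM of each gene in the ESC (blue) and NPC (orange) library, as points with exact Poisson 95% intervals (counting error only). In ESCs *Terc*, *Nhp2* and *Nop10* sit between 41.2 and 46.5 RPKM and *Dkc1* at 32.4, while in NPCs *Nhp2* leads at 31.9 and the next gene is at 18.0.

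The reads did not cover the mRNAs evenly. *Nop10* was the most uneven, with 194 of 195 ESC reads and 84 of 85 NPC reads in the 5′ part of its exons, up to the midpoint of their length, 99.5% and 98.8%. Over protein-coding genes with at least 50 reads in the library the median share up to the midpoint was 50.4% in ESCs (7257 genes) and 47.95% in NPCs (8153 genes). The 5′ untranslated part of *Nop10*, 98 nt, held 70 and 31 reads, while its 3′ untranslated part, 819 nt, held 62 and 34. Reads in repeats had been removed before deposit, and the repeat content of the 3′ part was not tested.

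*Dkc1* differed between the libraries in position as well as amount. The exons up to the midpoint held 22.5% of the ESC reads (19.1 to 26.1%) and 41.7% of the NPC reads (36.1 to 47.4%), 128 reads in each library. With each start counted once the shares were 27.4% (22.0 to 33.4%) and 32.3% (24.98 to 40.2%), and their intervals overlapped. Over the longest transcript, with all reads, they were 32.25% (28.4 to 36.3%) and 53.6% (47.7 to 59.4%). Exon 4, of 92 nt, had 38 reads in NPCs against 21 in ESCs, and a single start at position 72343810 gave 27 of the NPC reads. The last exon, which holds the 3′ untranslated part, had 231 and 84 reads, and exon 12 had 92 and 28. The 3′ untranslated part had 226 reads per kb in ESCs (198 to 257) and 82.4 in NPCs (65.8 to 102), while the coding part had 207 (185 to 231) and 137 (119 to 157). Over coding bases alone the *Dkc1* ratio was 0.624.

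Most *Gar1* reads lay in 1 exon. Exon 3, of 155 nt, held 46 of 69 reads on the longest transcript in ESCs and 92 of 136 in NPCs, 66.7% and 67.6%. Exon 7 held 21 and 41, and exons 5 and 6 held 0 in both libraries. A start at position 129532382 in exon 3 gave 17 reads in ESCs and 37 in NPCs, the most of any start of the gene in each library. Up to the midpoint of the union of exons lay 70.0% of the ESC reads (57.9 to 80.4%) and 69.85% of the NPC reads (61.4 to 77.4%). Over the longest transcript the shares were 55.1% (42.6 to 67.1%) and 68.4% (59.9 to 76.1%), with overlapping intervals.

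*Naf1* reads lay mainly in the last exon, 67 of 98 in ESCs and 156 of 199 in NPCs, with 2 in each library on the first exon of 830 nt. The 3′ untranslated part of *Naf1* went from 46.7 reads per kb (34.6 to 61.8) to 113 (94.0 to 136), and the coding part from 26.2 (19.3 to 34.9) to 44.1 (34.9 to 55.0). A start at position 69414242 in that exon had 8 reads in ESCs and 32 in NPCs. *Shq1* reads gathered in exons 4, 10 and 11, with 15, 12 and 24 reads in ESCs and 11, 15 and 33 in NPCs. The 4 exons of *Nhp2* had like densities in ESCs, from 170 to 210 reads per kb. In NPCs its first exon was at 90.5 and the others between 142 and 186, the difference resting on 51 reads in ESCs and 22 in NPCs.

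**Figure D4:**
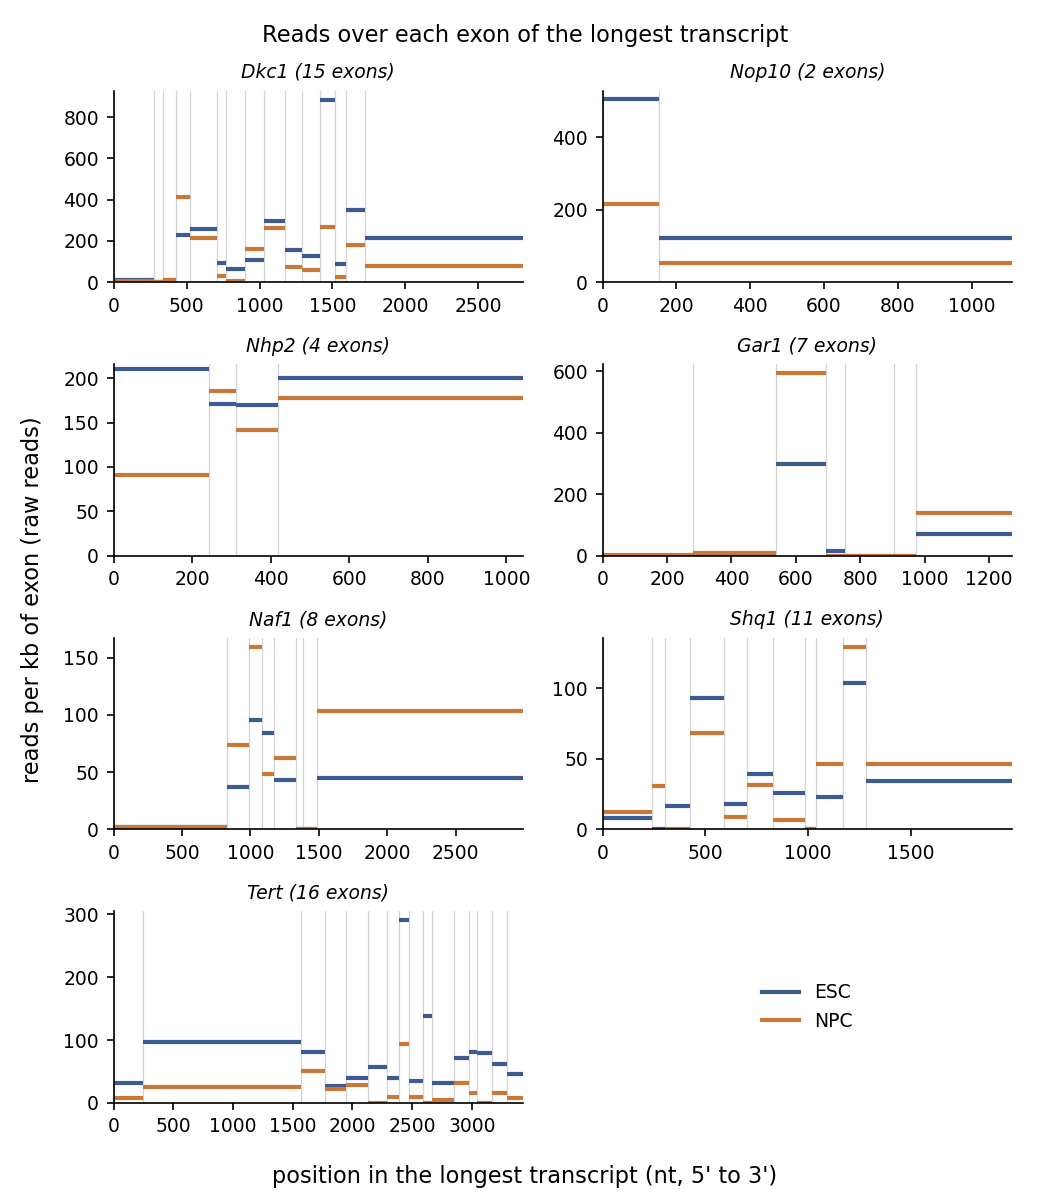
Raw reads per kb over each exon of the longest transcript, 5′ to 3′, for the 7 protein-coding genes in ESCs (blue) and NPCs (orange), with thin grey lines at exon borders. *Tert* is lower in NPCs over all 16 exons, and *Gar1* is dominated by exon 3 in both libraries. *Dkc1* is higher in NPCs at exons 4 and 8, and lower at exons 1, 5, 6 and 7 and from exon 9 on.

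Introns carried few reads per kb. The read density of introns, with annotated small RNAs left out, was between 0 and 6.28% of the exon density, beside a median of 2.71% in ESCs (6773 genes) and 2.43% in NPCs (7636 genes) over protein-coding genes with long introns and at least 50 reads in the library. *Tert* stood at 3.47% in ESCs (2.50 to 4.72%) and 4.23% in NPCs (2.34 to 7.24%), from 49 and 17 intron reads. *Naf1* stood at 6.13% (4.33 to 8.62%) and 3.41% (2.52 to 4.55%), with 55 and 62 intron reads. The 0 is that of *Nop10*, with 235 nt of intron and intervals up to 9.01% in ESCs and 20.9% in NPCs. *Shq1*, with 95895 nt of intron, had 70 intron and 69 exon reads in ESCs, and 46 and 76 in NPCs. Reads in repeats had been removed before deposit, while the intron lengths include repeats, so these densities can be too low. For *Tert* and *Naf1*, intron density so measured was a few percent of exon density in both libraries.

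The 7 genes hold 1 annotated small RNA, SNORA36 (ENSMUSG00000089014.1, chrX:72346748-72346865), an H/ACA RNA of 118 nt within *Dkc1*. It had 0 reads in both libraries (fixed limit 3), so leaving out or keeping small RNA reads did not change the *Dkc1* count. Most annotated H/ACA snoRNA genes had no reads either, 864 of 1031 in ESCs and 871 in NPCs. In the 2 libraries together 139 had at least 10 reads, and 100 of these were lower in NPCs and 2 higher, with a median log2 ratio of -1.63, or -0.66 with each start counted once. The 12.8% and 24.6% of all genes are the background for those counts. *Terc*, which shares their 3′ structure, had a log2 ratio of -2.06 by the same measure. The proteins that bind these RNAs ranged from -1.23 for *Nop10* to 0.91 for *Gar1*.

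The 7 lists of related genes, chosen by function, held 56 genes, all with at least 10 reads. Of these 2 were lower in NPCs (3.57%) and 8 higher (14.3%), beside 11.6% and 26.2% of protein-coding genes. Among 9 factors of H/ACA assembly and trafficking 1 was lower and 0 higher, with a median log2 ratio of 0.06. The lower one was *Ruvbl2*, an ATPase of the complex that assembles these particles, with 1052 reads in ESCs and 435 in NPCs, 2.49-fold higher in ESCs (2.23 to 2.79).

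Among 10 genes of telomerase RNA end processing 0 were lower and 2 higher, with a median of 0.53. *Skiv2l2*, the helicase that feeds RNA to the nuclear exosome, went from 222 to 552 reads, a ratio of 2.41 (2.06 to 2.83). *Exosc10*, a nuclease of that exosome, went from 92 to 191, a ratio of 2.02 (1.56 to 2.61). Its interval spans the 2-fold limit.

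Among 6 regulators and partners of telomerase 1 was lower and 1 higher, with a median of -0.15. *Gnl3l*, a nucleolar GTPase, had the most reads, 1020 in ESCs and 607 in NPCs. *Pinx1*, an inhibitor of telomerase, was the higher one, with 19 and 43 reads. *Pif1*, a helicase that displaces telomerase from DNA, was the lower one, with 33 and 13 reads, and is named here after its values were seen.

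Of the 7 shelterin genes, which cap telomeres, 0 were lower and 0 higher, with a median of 0.28. *Pot1a*, which binds the single-stranded end, had the most reads, 158 in ESCs and 157 in NPCs, in a list that spans -0.61 to 0.61.

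Of 8 genes of telomere end replication 0 were lower and 3 higher, with a median of 0.57. *Tnks*, a tankyrase, went from 279 to 643 reads, a ratio of 2.24 (1.94 to 2.58). *Dclre1b*, the Apollo nuclease, went from 34 to 82 reads. *Ten1*, of the complex that recruits DNA polymerase alpha, went from 10 to 25 and is named after its values were seen. *Tnks2* had the most reads, 1977 and 2352.

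Of 12 stand-alone pseudouridine synthases, which need no guide RNA, 0 were lower and 1 higher, with a median of 0.26. The higher one was *Pusl1* with 5 and 18 reads, named after its values were seen, and *Pus10* had the most reads, 144 and 237. Of the 4 core proteins of box C/D particles, which guide ribose methylation, 0 were lower and 1 higher, with a median of 0.36. That median turned to -0.22 with each start counted once and to -0.08 with reads of unique sequence. *Nop58* went from 340 to 737 reads, a ratio of 2.10 (1.85 to 2.40), and *Nop56* had the most reads, 667 and 832. Scaling by the median of all genes changed the 7 lists together to 6 lower and 1 higher, and counting each start once to 0 higher. With each start counted once the medians of assembly factors and of stand-alone synthases also turned, to -0.25 and -0.11, and scaling by the median of all genes turned them to -0.27 and -0.08 and that of shelterin to -0.06. The plot of list genes gives each value.

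**Figure D5:**
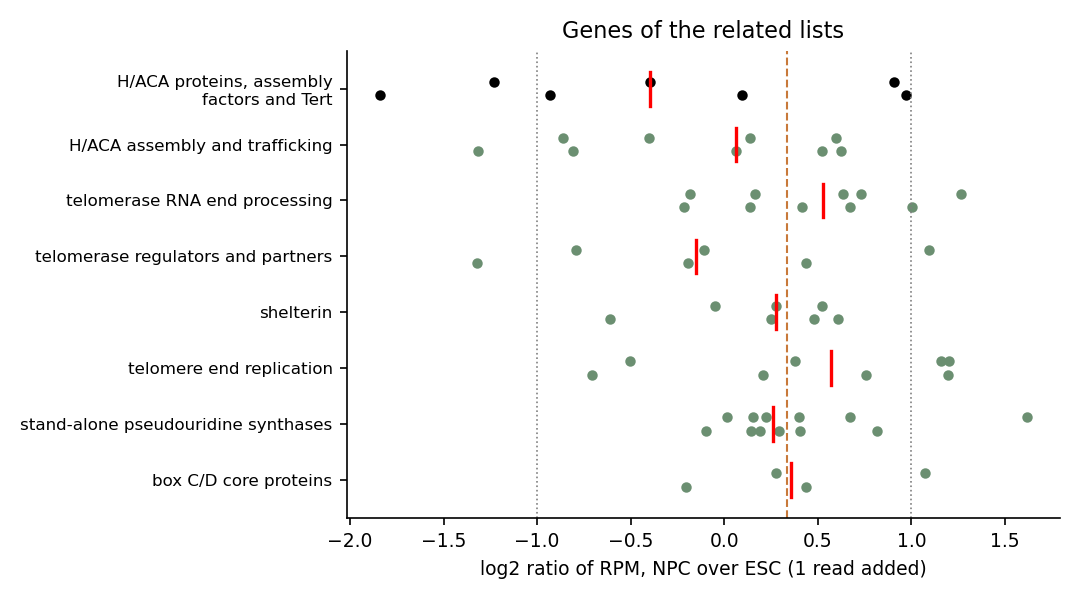
Log2 ratio of RPM, NPC over ESC, with 1 read added in each library, for the 7 protein-coding genes (black) and the genes of the related lists (green), with the median of each row (red), the median of all genes (dashed orange) and 2-fold differences (dotted). The black points reach from -1.84 (*Tert*) to 0.97 (*Naf1*), and 2 of the 56 green points lie beyond 2-fold on the ESC side and 8 on the NPC side.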

How the data were processed

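Non-polyadenylated RNA of ESCs and NPCs was sequenced on SOLiD 3 after 3 rounds of oligo(dT) depletion and 1 round of ribosomal RNA removal. Libraries were made from 2 µg of input, size-selected at 150 to 250 bp and amplified for 15 cycles. The authors placed the 50-nt reads on mm9 using Bowtie (version not given in the sources used here), allowing 2 mismatches within a 45-nt seed. They kept the best placement without requiring it to be unique, and they removed mitochondrial, ribosomal and RepeatMasker reads. The deposited files list, 1 line per read, the start and end coordinate of each placement with its strand and 48 nt of sequence. Some intervals were shorter than 48 nt (3.77% of ESC and 4.23% of NPC reads). Reads across splice junctions were not analysed here, so short exons are undercounted.

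From these coordinates, reads overlapping the GENCODE M1 exons of a gene on its strand by at least 1 base were counted, leaving out reads on annotated small RNAs inside it. Annotation and genome are of the same build. Sequences were read from that genome, and 82.2% of ESC and 87.2% of NPC reads carried a sequence that occurs once in it. RPM used the library totals, and RPKM the union of exons. Where each start was counted once, the totals were start positions, 1531216 in ESCs and 1848069 in NPCs. Reads of unique sequence were likewise scaled by their own totals. Protein-coding exons held 51.9% of ESC and 66.1% of NPC reads. Shares have Clopper-Pearson 95% intervals. For a count of 0 the limit given is a fixed 3 reads, below the end of the exact interval at 3.69. The counting and the intervals were tested on simulated data.

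The members and the gene lists were chosen with earlier results of these data known. The genes named are every member, small RNA genes inside members, from each list the gene with the most reads and those more than 2-fold apart with at least 50 reads, and the leading marker genes. *Pax6*, *Nes*, *Tubb3*, *Col1a2*, *Thy1* and *Pdgfrb* were added after their values were seen. *Sox1* was not matched in the annotation. Alternatives counted each start once, scaled by the median of all genes or by protein-coding exon reads, kept reads of unique sequence, assigned reads by the 5′ end, added 0.5 read, used the longest transcript, coding bases or small RNA reads, and used no minimum or 50 reads. Software was Biopython 1.88, matplotlib 3.10.9, numba 0.67.0, SciPy 1.17.1, NumPy 2.4.6 and Python 3.11.15.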

Additional observations from a re-analysis of the deposited data

Results flagged for a closer look

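A group of reads inside an intron of *Dkc1*, outside every annotated exon and small RNA, lies at chrX:72349580-72349672 on the gene strand. It held 15 reads in ESCs and 2 in NPCs and was noted because the ESC count exceeds the fixed limit of 3 reads used for a count of 0. It was the only stretch in the introns of the 7 protein-coding genes with at least 10 reads in the libraries together, and it was found by looking at the reads. The group was built from reads that touch no annotated exon, so by that rule it could not reach exon 10, which starts at 72349679. The 15 and 2 reads are all those overlapping the stretch, and some may run into exon 10. What the RNA is was not tested.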

How the results depend on the processing

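With 1 library per cell type every ratio compares these libraries. Counting each start once changes part of the values, through both the gene counts and the library totals. Of 220 alternative values, 178 stayed close to the reported value and 42 moved. Part of the 178 could not move, so the tally overstates stability. Keeping small RNA reads changed no member count, and all 56 list genes had the minimum reads already. For *Nop10*, *Naf1*, *Tert* and *Terc* the longest transcript is as long as the union of exons. Reads crossing the *Terc* end do not depend on the window beyond it. A change of direction was looked for only in ratios of called genes and in list medians beyond 2-fold, and 0 of those turned. Other values were not scored for direction, and some did turn, such as the *Shq1* ratio. Close means within the counting interval for ratios, levels and shares, within 1.5 times for counts of genes, and within 1 SD of the genes' log2 ratios for list medians. Counting each start once moved the *Terc* ratio to 0.506, left 1 protein-coding gene of the 7 lower (*Tert*) and took the related genes called higher to 0. Over coding bases 1 of the 7 was called higher, *Gar1* at 2.10. Scaling by the median of all genes, and likewise by protein-coding exon reads, gave 6 related genes lower and 1 higher. With a minimum of 50 reads 1 related gene was lower. The *Tert* ratio moved in none of its 8 alternatives, although the longest transcript and the keeping of small RNA reads could not move it. The cause of these shifts was not tested, except that a higher minimum leaves fewer genes. Levels and orders that divide by the length outside repeats were not run, because the genome used here does not mark repeats. No paired analysis was possible because each group has 1 library. Depth limits *Terc* in NPCs most, at 20 reads, and its start positions cannot be compared finely.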
